A study of Zea mays with 4 samples.

Results

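The 51187 DNA sites listed for OBF4 (Zm00001d012553) in a DNA affinity purification sequencing (DAP-seq) experiment in maize are described here. They are all the peaks of the list deposited for the sample titled OBF4, 12.8% of the 398506 peaks of the series. OBF4 was tested beside C3H23 (Zm00001d008323, 76032 peaks), CPP2 (Zm00001d031008, 165420 peaks) and THX20 (Zm00001d017420, 105867 peaks), with 1 library for each factor. All 4 proteins were made in wheat germ extract with a Halo tag, held on beads and given the same kind of DNA, a library of genomic DNA from B73 leaves at 14 DAG. DNA freed of nucleosomes was offered to single proteins, so the list concerns binding in a tube. Whether each listed site is bound by OBF4 itself was not tested. No library without a factor was used here. With 1 library there is no replicate error and no p-value. Intervals are 95% intervals for the counting of peaks alone, and neighbouring peaks are not independent. The number of reads is unknown.

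OBF stands for ocs-element binding factor, a name for plant proteins of the basic leucine zipper (bZIP) class. Proteins of this class bind DNA as dimers: a zipper of leucines joins the chains, and a basic stretch of each chain lies in the major groove. The ocs element, first studied in the promoter of the octopine synthase gene, consists of adjoining binding sites with an ACGT core, so dimers can bind side by side. In Arabidopsis, OBF4 is another name of TGA4, a bZIP factor of the TGA type. The submitters place OBF4 downstream of ZmNAC128 and ZmNAC130, NAC factors of the maize endosperm. The deposited file of the OBF4 sample carries another factor name of the bZIP class. The label was not checked against a DNA motif, because no genome sequence of the files' build was used here. Positions are those of the deposited lists, counted from 1, with no build named.

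The strength of OBF4 sites was uneven, with a broad base of weak peaks and a thin tail of strong ones. Each peak is a summit with 100 bp on either side and has a signal, a value given by the authors whose scale is not stated and which ranks peaks within the list. The signal had a median of 30.8. Its middle 50% lay between 24 and 43, and its full range was 14.5 to 924.6. Of the 51187 peaks, 838 had 4 to under 8 times the median signal and 214 had 8 times or more. The strongest 1% of peaks (512) held 6.62% of the summed signal and the strongest 10% held 27.2%.

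For what follows the list was divided by signal into 10 classes of equal size, from class 1 (the weakest) to class 10 (the strongest). Class 1 ran from 14.5 to 21, with a median of 19. Class 5 had a median of 29 and class 9 one of 54. Class 10 began at 64 and had a median of 85. Classes 2 to 6 spanned only 21 to 34 between them, so peaks of neighbouring classes there differ by a few units. Ranking by the authors' −log10 p instead put 42.1% of peaks in the same class and 77.3% within 1 class of it. At the strong end both orders met: 4666 of 5118 class 10 peaks (91.2%) were in the top class by either. Among the 1148 peaks with a signal of exactly 30, −log10 p ran from 3.54 to 9.03, so peaks of equal signal differed in their p-value.

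**Figure D1:**
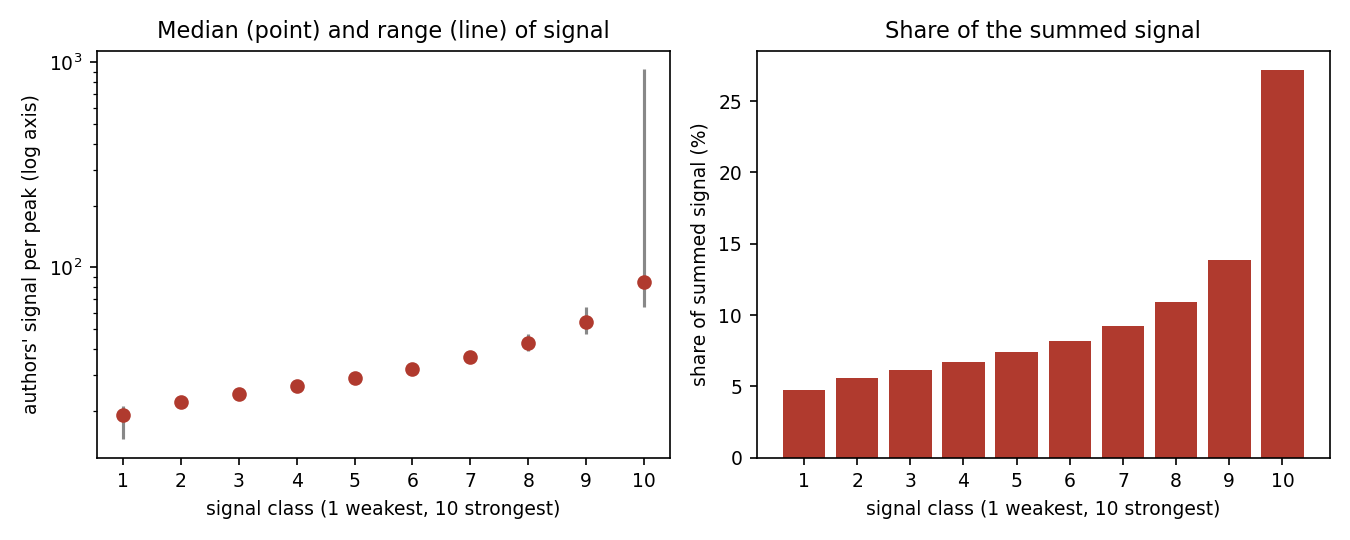
Left, median signal (points) and lowest to highest signal (lines) of OBF4 peaks in 10 signal classes, on a log axis. Right, percent of the summed OBF4 signal in each class. The classes rise slowly up to class 9, and class 10 alone spans 64 to 924.6 and holds 27.2% of the signal.

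Each of the 10 strongest peaks had another OBF4 peak close by. The highest signal, 924.6, belonged to the peak at chr3:88772195-88772395, which had an OBF4 companion of signal 178.4 at 144 bp. The next, chr7:101448037-101448237 (signal 907.5), was the main peak of a group of 3 with a companion of 55 at 191 bp. The peak at chr9:118472680-118472880 (716.6) had a companion of 156.4 at 167 bp. The peak at chr3:74395855-74396055 (684.1) belonged to a group of 4 peaks.

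The companion was strong in its own right at several of these sites. At chr7:57492590-57492790 the signal was 635 and that of the companion, 127 bp away, 478. At chr7:91067807-91068007 the signals were 582.3 and, 146 bp away, 298.7. The 9th and 10th peaks, chr9:28524542-28524742 (575.1) and chr7:940049-940249 (562.4), each had a companion at exactly 249 bp, with signals of 209.9 and 183.6. The others of the strongest 10 were chr9:59774604-59774804 (637.8, companion of 109.2 at 347 bp) and chr8:94425287-94425487 (627.9, companion of 152.1 at 288 bp).

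A companion was the rule among strong OBF4 peaks and the exception in the list. All 100 strongest peaks had another OBF4 summit within 500 bp, at a median of 249 bp, against 9.67% of the whole list. The companion had a median of 0.413 times the signal of the peak itself and was a class 10 peak in 89 of the 100 cases. Some of these 100 peaks are companions of each other, as at chr7:57492590-57492790, so the cases are not all separate sites. Among the strongest 500 peaks, 79.8% (76.1 to 83.1%) had a companion within 500 bp. The share was 64.3% (61.3 to 67.2%) among the strongest 1000 and 28.1% (26.9 to 29.4%) among the strongest 5000. The 100 strongest peaks of the other lists had a neighbour of their own list within 500 bp in 52 (C3H23), 69 (CPP2) and 85 (THX20) cases, although such neighbours were commoner in those lists as a whole (22.96%, 37.9% and 37.3%). The 100 strongest OBF4 peaks lay on all 10 chromosomes, from 5 on chromosome 10 to 15 on chromosome 1.

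The signal itself behaves differently where summits stand close. Of peaks with another OBF4 summit within 500 bp, 10.8% had a whole-number signal, against 68.4% of those without one. In steps of 25 bp, 25.4% of 122 peaks were whole where the nearest OBF4 summit lay in the last step up to 500 bp, 40.6% of 96 in the first step beyond it and 88.8% of 125 in the next. The other 3 lists showed the same contrast (11.02 to 12.2% with such a neighbour, 76.1 to 80.0% without). How a signal was assigned to summits this close is not given in the sources used here, and its part in the companions of strong peaks was not tested.

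Spacing was then set against uniform placement, taken from a formula with the number of peaks and the length of each chromosome or contig. OBF4 summits stood closer together than uniform placement gives at short range. The median gap was 25212 bp over chromosomes and contigs. Uniform placement gives 28864 bp, a value taken from the pooled density of the 10 chromosomes alone. Gaps were also more variable (coefficient of variation 1.21, against 1). Another OBF4 summit lay within 200 bp of 5.13% of peaks (0.960% expected, 5.34-fold) and within 1 kb of 12.6% (12.3 to 12.9%; 4.71% expected, 2.68-fold). The excess within 1 kb was 1.71-fold with overlapping OBF4 peaks joined and 4.02-fold in the stronger 50% of the list. Within 10 kb the excess was 1.25-fold, and within 50 kb 90.8% of peaks had a neighbour, against 90.9% expected.

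Pairs of OBF4 summits were rare at the shortest distances, frequent around the width of a peak, and frequent again between 1 and 2 kb. Only 25 pairs were up to 50 bp apart, against 61.7 expected (0.405-fold). Pairs of 2 peaks of the stronger 50% were not rare there (14 against 15.5 expected, 0.905-fold). Those of 2 peaks of the weaker 50% stood at 0.195-fold, and those with 1 of each at 0.259-fold. The excess reached 8.84-fold at over 150 to 200 bp (546 pairs) and fell to 1.40-fold at over 750 bp to 1 kb. It was 1.92-fold at over 1 to 2 kb (2376 pairs against 1235 expected), with a crest of 2.54-fold at over 1700 to 1800 bp, and 1.28-fold at over 2 to 5 kb. A smaller rise followed at over 3000 to 3100 bp (213 pairs, 1.73-fold).

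Strength sorted the short-range pairs. At over 100 to 150 bp, pairs of 2 peaks of the stronger 50% stood at 13.8-fold, and those of 2 peaks of the weaker 50% at 5.32-fold. At over 500 to 750 bp the values were 1.31-fold and 1.70-fold, and at over 1 to 2 kb they were 2.42-fold and 1.57-fold. The Spearman correlation of the signals of adjacent peaks was 0.276 up to 200 bp apart (1338 pairs), 0.486 at over 200 to 500 bp (1206 pairs), 0.015 at over 500 bp to 1 kb (811 pairs) and 0.029 at over 10 to 100 kb (31281 pairs). These pairs share 1 library, and whole-number signals are rare among the closer ones, as above.

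By class, the share of OBF4 peaks with a neighbour within 1 kb was 13.2% (12.3 to 14.2%) in class 1, 8.99% (8.23 to 9.80%) in class 6, 13.2% (12.3 to 14.1%) in class 9 and 29.9% (28.6 to 31.1%) in class 10. Class 10 thus stood apart from all others, which lay between 8.99 and 13.2%.

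**Figure D2:**
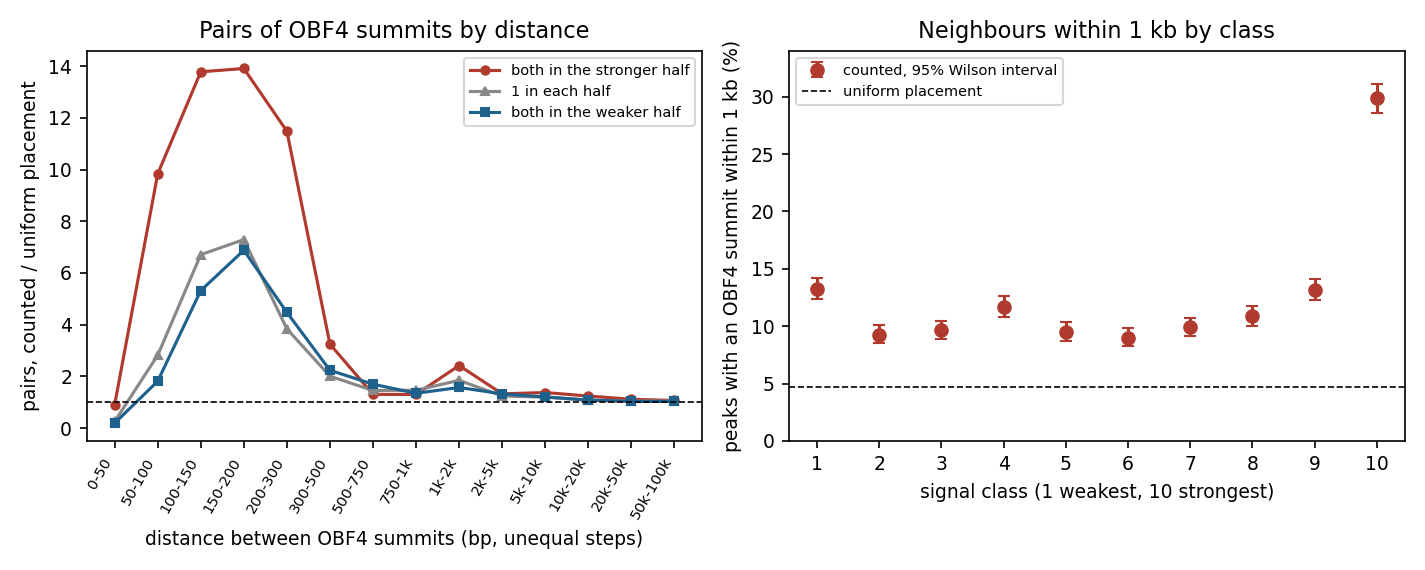
Left, pairs of OBF4 summits by distance (bp, unequal steps), counted over uniform placement, for pairs of 2 peaks of the stronger 50%, of 1 peak from each side of the median, and of 2 peaks of the weaker 50%. Right, percent of peaks with another OBF4 summit within 1 kb in each signal class, with 95% Wilson intervals; the dashed line marks uniform placement (4.71%). Pairs of the stronger 50% exceed the others between 50 and 500 bp, all 3 curves rise again at 1 to 2 kb, and class 10 reaches 29.9%.

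OBF4 groups were small. Joined by gaps of at most 1 kb, the peaks formed 44734 single sites, 2854 pairs (1166 expected, 2.45-fold), 232 groups of 3 (28.1 expected, 8.24-fold), 11 groups of 4 and 1 group of 5. Groups of 3 or more held 745 peaks, 1.46% of the list, against 0.171% expected (8.53-fold). This was 3.68-fold with overlapping OBF4 peaks joined, and 18.3-fold where gaps of at most 500 bp made a group. Their median signal was 43, against 33.7 in pairs and 30 in single sites, and 143 of the 244 such groups held a class 10 peak. Counted by peak, 241 of the 745 (32.3%) were class 10, against 5118 of 51187 in the list. A group with more peaks has more openings to hold one.

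The group of 5 spanned chr4:119392940-119394166, with signals of 56.8, 149.2, 89.7, 224.8 and 184.6 along the chromosome and 1026 bp between its outer summits. The most intense groups of 4 were at chr3:74394952-74396251 (summed signal 1124), chr8:57731241-57731830 (910), chr3:147223476-147224313 (489) and chr7:70604836-70606275 (349.9). In each of these 4 the highest signals belonged to the inner peaks: 358.6 and 684.1 at the first, 228.5 and 489.7 at the second, 253.3 and 185.7 at the third, 166.3 and 123.4 at the fourth. None of the peaks of these 5 groups overlapped a peak of another list, as was the case for 91.8% of all OBF4 peaks.

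Measured with the same formula, OBF4 had the lowest excess of neighbours of the 4 lists. The share with a neighbour of the same list within 1 kb stood at 2.68-fold for OBF4, 2.91-fold for CPP2, 4.13-fold for C3H23 and 4.38-fold for THX20. With every list reduced to its 51187 strongest peaks, the folds were 2.68, 3.65, 5.98 and 6.12 in the same order. That cut keeps all OBF4 peaks, weak ones included, but only the strongest part of each other list. The OBF4 fold was 4.02 in its own stronger 50%, so the equal number does not match the lists for strength. Groups of 3 or more held 1.46% of OBF4 peaks, 7.88% of CPP2, 6.26% of C3H23 and 9.004% of THX20 peaks. Over uniform placement these were 8.53-fold, 4.91-fold, 17.0-fold and 13.0-fold, from lists of unequal size whose expected shares ran from 0.171% (OBF4) to 1.60% (CPP2).

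Certain exact distances recurred between adjacent OBF4 summits. Between 15 bp and about 1 kb, 10 distances stood out from those around them: each occurred in 20 or more pairs, in more than double the mean of the 20 nearest distances, and beyond that mean by more than 4 times its square root. The most frequent was 82 bp (37 pairs against 6.55 around it), and these were strong sites: 32 of the 37 pairs held a class 10 peak, with median signals of 109.9 and 60.8 for the higher and the lower member. Pairs at 249 bp (27, median signals 221.1 and 109.9) and at 246 bp (26, 166.8 and 95.3) were stronger still, with a class 10 peak in 22 and 24 of them. At the opposite end, 488 bp occurred 20 times against 1.7 around it, the steepest excess of these 10, and no pair held a class 10 peak (median signals 37.95 and 24). Of all adjacent pairs, 45.1% of those up to 200 bp apart held a class 10 peak. The share was 42.0% of those over 200 to 500 bp apart.

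The other distances listed were 103, 123, 134, 150, 153 and 274 bp, with 21 to 33 pairs each. Beyond 1 kb the most frequent distance was 1378 bp, with 34 pairs against 2.6 around it, followed by 1377 bp with 14. The 1378 bp pairs lay on 10 chromosomes or contigs, with median signals of 53 for the higher and 25 for the lower member, against 40.6 and 26 for all adjacent pairs over 1 to 2 kb apart. None of these pairs overlapped a peak of another list (8.17% of all OBF4 peaks, counted singly, did). Of the 37 pairs at 82 bp, 11 overlapped a THX20 peak, where 2.05% of all OBF4 peaks, counted singly, did. Either peak of a pair can overlap, so the share of single peaks is not the share to be expected for pairs. OBF4 and THX20 summits themselves were 81 bp apart in 42 of the 365 cases from 50 to under 100 bp. The sequences at these pairs were not analysed here.

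On all 10 chromosomes OBF4 peaks were denser in the central 20% of the length than at the ends, with the highest density often short of the middle. The density was 22.8 peaks per Mb on chromosome 1, the lowest, and 25.7 on chromosome 7, the highest. Each chromosome was cut into 10 segments of equal length. Pooled over chromosomes the density reached 29.4 per Mb in the 4th segment and 29.3 in the 5th, against 20.8 in the 1st and 20.2 in the 10th. The profile was therefore not symmetrical: the 4th segment exceeded the 7th (22.7 per Mb), which lies as far from the other end. The densest segment was the 4th on chromosomes 3, 4, 7, 8, 9 and 10, the 5th on chromosome 1 and the 6th on chromosomes 2 and 5, and on chromosome 6 the 3rd and 4th were level with 503 peaks each.

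The central 20% of chromosome length held 27.8 peaks per Mb, against 20.5 in the first and last 10% together. The ratio was 1.36 (1.32 to 1.40). It was highest on chromosome 2 (1.67, 1.54 to 1.81) and chromosome 5 (1.63, 1.499 to 1.78). It was 1.41 (1.28 to 1.54) on chromosome 7 and 1.35 (1.26 to 1.45) on chromosome 1. Chromosomes 3, 6 and 10 each had 1.30, with intervals from 1.16 to 1.45 at the widest. Chromosomes 8 (1.24, 1.13 to 1.36), 9 (1.22, 1.11 to 1.35) and 4 (1.17, 1.08 to 1.26) had the lowest. Chromosome 4 had the widest contrast between segments all the same, 30.4 per Mb in its 4th against 16.4 in its 8th, and the highest density at its ends (23.6 per Mb).

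**Figure D3:**
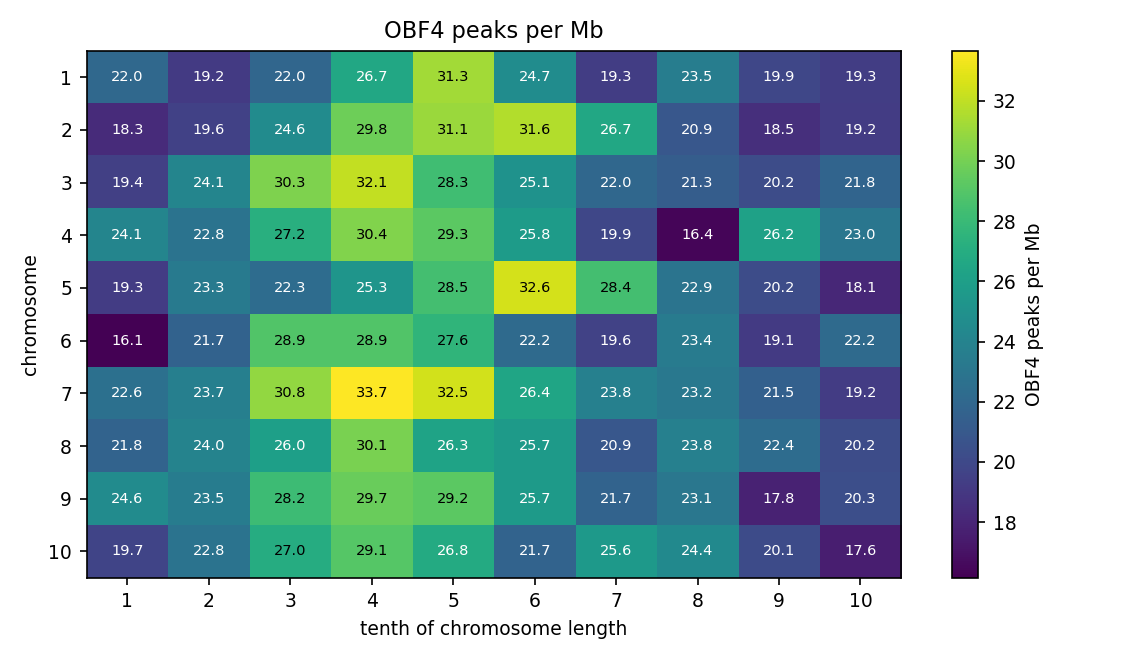
OBF4 peaks per Mb in 10 segments of equal length of each of the 10 chromosomes, with the value in each cell. The 4th segment of chromosome 7 is the densest (33.7) and the 1st segment of chromosome 6 the sparsest (16.1).

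The rise towards the middle differed with strength. The ratio of central to outer density was 1.03 (0.945 to 1.12) in class 1, where the interval includes 1. It lay between 1.26 and 1.33 in classes 2 to 5 and between 1.40 and 1.59 in classes 6 to 10, with 1.58 (1.44 to 1.72) in class 10. In other words, class 10 made up 10.5% (9.92 to 11.03%) of central peaks, against 9.03% (8.44 to 9.65%) of outer ones. Grouping hardly followed: 12.4% (11.9 to 13.1%) of central peaks and 11.8% (11.1 to 12.5%) of outer ones had a neighbour within 1 kb. Class 10 peaks made up 9.29% of the peaks of chromosome 1, the lowest share, and 10.8% on chromosome 9, the highest.

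In bins of 1 Mb the number of OBF4 peaks varied more than uniform placement gives. Over 2101 full bins the median was 23 and the variance was 2.26 times the mean, where uniform placement gives 1. By chromosome this ratio was 1.63 on chromosome 8 and 1.66 on chromosome 10, the most even, and 2.71 on chromosome 2 and 2.69 on chromosome 9, the least even. The fullest bins held 50 peaks (chr4:93000001-94000000), 49 (chr7:74000001-75000000 and chr9:82000001-83000000) and 48 (chr1:117000001-118000000 and chr8:55000001-56000000). Those of chromosomes 2 and 5 held 47 each, and those of chromosomes 3, 6 and 10 held 45, 43 and 38.

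Full bins differed in strength. Of the 45 peaks of the fullest bin of chromosome 3 (chr3:89000001-90000000) 11 were class 10, and of the 47 in that of chromosome 5 (chr5:116000001-117000000) 10 were. Of the 48 in the fullest bin of chromosome 1 and the 47 in that of chromosome 2 (chr2:77000001-78000000), 1 each was. The bin with 11 class 10 peaks lay 3 Mb from the emptiest bin of the same chromosome, chr3:86000001-87000000, which had 5 peaks in all.

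The emptiest bins were nearly empty on chromosomes 6 and 9. Bin chr6:12000001-13000000 had no OBF4 peak, one of 2 such bins on that chromosome, and chr9:75000001-76000000 had 2. They were also thin in the other lists, with 3 and 5 C3H23, 6 and 8 CPP2, and 2 and 4 THX20 peaks. In the emptiest bins of the other 8 chromosomes, with 5 to 11 OBF4 peaks, the other lists kept 14 to 34 (C3H23), 38 to 78 (CPP2) and 20 to 69 (THX20). The longest stretch without an OBF4 summit, 2.94 Mb, ran from 11495130 to 14435274 on chromosome 6 and held 19 C3H23, 25 CPP2 and 17 THX20 summits.

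Most OBF4 peaks were shared with no other list. A peak of another factor overlapped 4180 of them by at least 1 bp (8.17%), and 244 were overlapped by 2 other lists and 11 by all 3. C3H23 overlapped 2567 (5.01%, 4.83 to 5.21%), THX20 1050 (2.05%, 1.93 to 2.18%) and CPP2 829 (1.62%, 1.51 to 1.73%). Placed uniformly, 1.38%, 1.77% and 2.76% of OBF4 peaks would overlap them. The overlap was 3.65-fold for C3H23 (3.51 to 3.79), 1.16-fold for THX20 (1.09 to 1.23) and 0.586-fold for CPP2 (0.548 to 0.627).

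Overlap with C3H23 fell step by step as the OBF4 signal rose. It was 8.67% (7.93 to 9.48%) in class 1, 6.84% in class 2, 5.59% in class 5, 4.03% in class 7, 2.83% in class 9 and 2.01% (1.66 to 2.43%) in class 10. Relative to uniform placement this was 6.31-fold (5.77 to 6.90) in class 1 and 1.46-fold (1.21 to 1.77) in class 10. The share in class 1 was 4.31 times that in class 10 (3.48 to 5.34). With classes by −log10 p that ratio was 2.90, and the fall began later: the share was 6.17% in class 1, 7.11% in class 3, the highest, and 2.13% in class 10. The stronger 50% of the C3H23 list was overlapped 7.49-fold in class 1 and 1.84-fold in class 10. For its weaker 50% the values were 5.14-fold and 1.08-fold.

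Overlap with CPP2 was lowest in the middle of the OBF4 range. It was 0.856-fold (0.718 to 1.02) in class 1, 0.417-fold (0.324 to 0.537) in class 6 and 0.927-fold (0.783 to 1.10) in class 10, so the interval reached 1 at both ends and at no class between them. With classes by −log10 p the weak end stayed low, at 0.580-fold (0.468 to 0.718) in class 1, and class 10 stood at 1.004-fold (0.854 to 1.18). Weak OBF4 peaks met weak CPP2 peaks and strong met stronger ones: the overlapping CPP2 peak had a median signal percentile of 23.6 within its list in class 1, 43.7 in class 6 and 56.7 in class 10. In class 1 the weaker 50% of CPP2 was overlapped 1.23-fold and the stronger 50% 0.515-fold.

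Overlap with THX20 was modestly above uniform placement in classes 1 to 4 and in class 10, and its interval included 1 in classes 5 to 9. Class 3 stood at 1.33-fold (1.12 to 1.59) and class 4 at 1.21-fold (1.01 to 1.46). The overlap with THX20 was 1.37-fold (1.15 to 1.63) in class 1 and 1.41-fold (1.19 to 1.67) in class 2. It was 0.860-fold (0.690 to 1.07) in class 9 and 1.22-fold (1.02 to 1.47) in class 10. The share in class 1 was 1.12 times that in class 10 (0.865 to 1.44), an interval that includes 1. With classes by −log10 p the split moved. Class 3 then stood at 0.972-fold (0.790 to 1.19), an interval that includes 1, and class 5 at 1.38-fold (1.16 to 1.64). Pooled over classes, OBF4 peaks with an OBF4 neighbour within 1 kb overlapped C3H23 in 5.52% of cases and those without in 4.94%. The values were 2.26% and 2.02% for THX20 and 1.46% and 1.64% for CPP2. These shares were not matched for signal class. Class 10, where overlap with C3H23 was lowest (2.01%), had such a neighbour most often (29.9% of its peaks). The effect of grouping at equal strength was not tested.

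**Figure D4:**
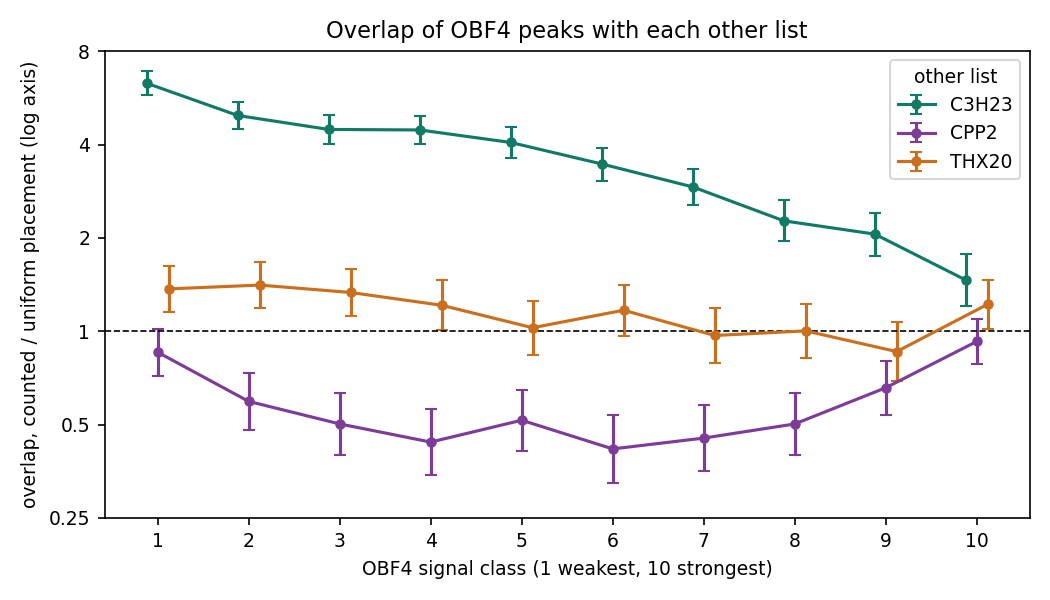
Overlap of OBF4 peaks with the peaks of C3H23, CPP2 and THX20 in 10 OBF4 signal classes, counted over uniform placement (log axis), with 95% Wilson intervals for counting error. C3H23 falls from class 1 (6.31-fold) to class 10 (1.46-fold), CPP2 is lowest in class 6 (0.417-fold), and THX20 stays between 0.860-fold and 1.41-fold.

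Around the strongest OBF4 peaks, C3H23 and CPP2 summits were most in excess at a distance from the summit. In class 10, C3H23 summits under 100 bp away were at 1.40-fold (51 pairs, 1.06 to 1.84), against 4.96-fold (4.72 to 5.20) in the other 9 classes. From 300 to under 500 bp the order was turned round: 5.85-fold in class 10 (429 pairs, 5.32 to 6.43), against 2.11-fold (2.0003 to 2.22) in the others. These 429 pairs involved 427 OBF4 peaks and 408 C3H23 summits. Class 10 peaks with an OBF4 companion within 500 bp had 11.4-fold and those without 3.68-fold: the band was present in both, and higher beside paired peaks.

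Among the very strongest sites, C3H23 summits were counted in a wider band. Of the 100 strongest OBF4 peaks, 18 had their nearest C3H23 summit at over 200 to under 500 bp, against 4.51% of all OBF4 peaks. None of the 100 overlapped C3H23, where 5.01% of all OBF4 peaks and 2.01% of class 10 did. Neighbouring peaks among these 100 can have the same nearest C3H23 summit. At chr3:88772195-88772395 the nearest C3H23 summit was 323 bp away, at chr7:101448037-101448237 it was 289 bp away and at chr9:118472680-118472880 355 bp. It was 386 bp away at chr7:91067807-91068007. At the rest of the strongest 10 peaks it was 2205 to 55050 bp away. A CPP2 summit also lay 334 bp from chr7:101448037-101448237, 381 bp from chr9:118472680-118472880 and 393 bp from chr7:91067807-91068007. For the others of the 10 the nearest CPP2 summit was 2507 to 18385 bp away. Of the 100 strongest, 7 had their nearest CPP2 summit at over 200 to under 500 bp, against 2.76% of all OBF4 peaks.

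In class 10 as a whole, the band of highest CPP2 excess was nearer than that of C3H23. Class 10 peaks had CPP2 summits at 2.01-fold from 150 to under 200 bp (80 pairs) and 1.99-fold from 200 to under 250 bp (79 pairs), against 0.703-fold and 0.826-fold in the other classes. Under 100 bp they were at 0.341-fold (27 pairs, 0.234 to 0.497) in class 10 and 0.401-fold (0.357 to 0.450) in the others. Where class 10 peaks overlapped CPP2, the median distance of the summits was 162 bp, against 130 bp over all OBF4 peaks that overlap CPP2. THX20 in class 10 stood at 0.930-fold (0.760 to 1.14) from 300 to under 500 bp, where the other classes had 1.43-fold (1.35 to 1.51). Its highest steps in class 10 were 1.76-fold from 50 to under 100 bp (45 pairs) and 2.04-fold from 950 to under 1000 bp (52 pairs), against 1.39-fold and 1.47-fold in the other classes.

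**Figure D5:**
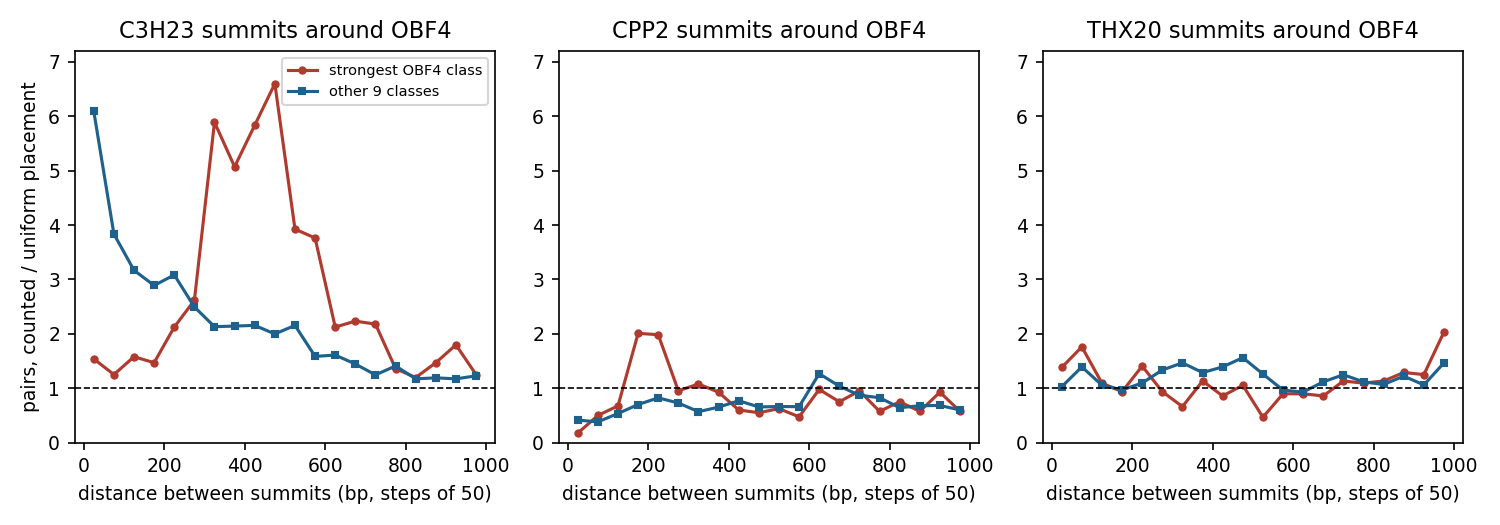
Summits of C3H23, CPP2 and THX20 around OBF4 summits by distance (bp, steps of 50), counted over uniform placement, for the strongest OBF4 class and for the other 9 classes. C3H23 summits crowd at 300 to 500 bp from the strongest class and at under 50 bp from the others, and CPP2 summits peak at 150 to 250 bp from the strongest class.

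Some strong OBF4 peaks were shared, among them 1 of the strongest 100. Another list overlapped 4.2% of the strongest 500, 6.4% of the strongest 1000, 6.58% of class 10 and 8.17% of all OBF4 peaks. The strongest OBF4 peak overlapping C3H23 was chr7:147153639-147153839, with a signal of 282.8 (within the top 0.280% of the list) and a C3H23 summit 4 bp away. It was followed by chr7:93608563-93608763 (222, summit 31 bp away), chr3:27541229-27541429 (199.9, 195 bp), chr6:899388-899588 (192.9, 186 bp) and chr7:49008522-49008722 (192, 74 bp). The strongest overlapping CPP2 was chr2:153422030-153422230 (354.9), the only one of the 100 strongest OBF4 peaks to overlap any other list. The next were chr9:57105925-57106125 (312), chr1:52215114-52215314 (217), chr10:40481455-40481655 (203) and chr10:46237823-46238023 (169), and in these 5 the CPP2 summit was 130 to 176 bp away.

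The strongest overlapping THX20 were chr4:32791610-32791810 (295.1, summit 13 bp away) and chr2:140260287-140260487 (230, 163 bp away). The others were chr3:9948510-9948710 (207.2, 55 bp), chr1:22736528-22736728 (206.6, 62 bp) and chr1:306603275-306603475 (201.3, 82 bp). The third of these 5 was one of a pair of OBF4 peaks 82 bp apart, and the first had an OBF4 companion at 85 bp. In the whole list, OBF4 peaks that overlapped C3H23 had a median signal of 26.5, those that overlapped THX20 29 and those that overlapped CPP2 31, against 31 for those that overlapped none. Class 10 held 4.01% of the peaks that overlapped C3H23, 10.6% of those that overlapped THX20 and 15.8% of those that overlapped CPP2, against 10.2% of those that overlapped none.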

How the data were processed

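The submitters' processing notes name Trimmomatic 0.39, a read trimmer, and Bowtie2 2.4.1, an aligner. Not given in the sources used here are the peak caller, its control and the build. The deposited file names point to removal of blacklisted regions. Per peak, the deposited lists hold a score, a signal (the scale is not stated), a −log10 p and a −log10 q (at least 3) and a summit offset of 100 bp. The authors' score was not used further (Pearson correlation with the signal 0.999 in OBF4).

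Peaks overlapped with summits at most 200 bp apart. Uniform placement was computed by formula for each chromosome or contig up to the last peak of any list, without leaving out unmappable sequence; counts and formulas were tested on simulated data. Intervals are Wilson for shares and Poisson for ratios. Python 3.11.15, numpy 2.4.6, pandas 2.3.3, scipy 1.17.1 and matplotlib 3.10.9 were used.

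The sites and lists were chosen with earlier results of these data known. Named sites are the 10 strongest peaks, the 5 strongest shared with each list, the 5 largest groups, and the fullest and emptiest 1 Mb bins. The bands of distance, the companions of strong peaks, whole-number signals and distances beyond 1 kb were chosen after the data were seen. The settings tried were other classes, overlap, density, groups and stricter lists. Genes and motifs were not analysed here: the gene table at hand names 1 assembly, the lists name none, and it was not used.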

Additional observations from a re-analysis of the deposited data

Results flagged for a closer look

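Of the 51187 OBF4 peaks, 609 lay on 127 contigs not placed on a chromosome. They were noted because the profile along chromosomes did not use them and they lie above a count of 0. Their median signal was 31, and 52 of them (8.54%, 6.57 to 11.03%) were in the strongest class. C3H23 overlapped 43 (7.06%), THX20 15 (2.46%) and CPP2 12 (1.97%). Contig 150 held the most, 70 peaks.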

How the results depend on the processing

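No paired analysis was possible because a single library stood for each factor, and no replicate could be left out. Of 32 alternatives, 13 lay within the counting interval of the main value, 19 moved beyond it and 0 turned round. Neighbours within 1 kb stood at 4.02-fold in the stronger 50%, 1.71-fold with overlapping OBF4 peaks joined and 2.55-fold with the density of 1 Mb bins. Groups of 3 or more stood at 18.3-fold with gaps of at most 500 bp, 5.72-fold with 2 kb and 3.68-fold with overlapping peaks joined. The central over outer ratio was 1.28 for the central 40% over the outermost 20% at either end and 1.49 in the stronger 50%. Overlap with C3H23 was 4.58-fold with summits within 100 bp, 3.47-fold against the density 10 to 100 kb away, 3.29-fold in the stronger 50% of each list and 4.34-fold with C3H23 reduced to the OBF4 number. CPP2 gave 0.411-fold with summits within 100 bp, 0.536-fold in the stronger 50% and 0.412-fold with the reduced list. THX20 gave 1.27-fold with summits within 100 bp and 1.08-fold in the stronger 50%. Added after seeing the data, classes by −log10 p gave a class 1 over class 10 share of 2.90 for C3H23 and 0.577 for CPP2 (0.923 by signal, 0.721 to 1.18). Leaving out OBF4 peaks with a neighbour within 500 bp moved none of the 3 overlaps, the 3 class ratios or the central ratio beyond its interval. The cause of the changes was not tested. Unknown depth limits every count.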
